A study of Homo sapiens with 4 samples.

Results

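Solute carriers (SLC) are the gene families that encode membrane proteins moving nutrients, ions and metabolites across the plasma membrane and the membranes of organelles. The set described here holds every gene in the authors' annotated comparison table whose symbol begins with SLC and a digit. The table keeps genes by their mean over all libraries, so the members were chosen by a measured level. For 7 of them, whose mean lay under the table's floor in one condition, the other condition decided that they were listed. There were 94 members among the 6145 genes of the table, out of 374 genes with such a symbol among the 19729 genes of the per-library files. Of the 94, 5 have an SLC symbol but do not encode carriers: SLC9A3R1 and SLC9A3R2 are scaffold proteins, and SLC2A4RG, SLC4A1AP and SLC7A6OS are named for the carrier or anion exchanger gene they regulate, bind or neighbour. They were kept and are described at the end.

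RNA was sequenced from HT-29 cells, a human colorectal cancer line with truncated APC. The cells were stably transduced pools in which doxycycline (DOX) switches on an shRNA: one that targets APC (APC shRNA) or a control without a target (non-silencing, NonS). Both conditions received 500 ng/ml DOX for 72 h, so the NonS cells carry the vector and the drug as well. Each condition had 2 biological duplicates, replicates I and II, which gives 4 libraries. The deposited values are whole numbers on a score of unstated scale that summed to between 398338 and 413595 per library, and their depth in reads is unknown. In the sentences below, values are listed in the order NonS I, NonS II, APC shRNA I and APC shRNA II.

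Glucose enters cells through facilitative carriers of the SLC2 family and amino acids through families such as SLC1, SLC7 and SLC38. Metals are moved by SLC11, SLC30, SLC31, SLC39, SLC40 and SLC41 proteins. The SLC29 and SLC35 families carry nucleosides and nucleotide sugars, the latter into the endoplasmic reticulum and the Golgi for glycosylation. The SLC25 family spans the inner mitochondrial membrane. In the intact colon, differentiated surface cells carry anion, sodium and short-chain fatty acid transporters, and tumour cells are known for high glucose and glutamine uptake.

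In the deposited values per library the targeted transcript was too low for a check of the labels. APC was listed at 3 in NonS I and at 0 in each of the other 3 libraries, far under the lowest mean in the table, which is 8. The cells had the markers of colorectal epithelium, with 8 of 10 such genes in the table and a summed level between 4358 and 5410 in all libraries. CDX1 was listed at 2, 2, 0 and 0, and CDX2 at 0, 0, 2 and 4. Of the 8, 2 were higher without overlap, KRT18 at 1550, 1796, 2061 and 2083 and VIL1 at 29, 31, 39 and 35, and 2 were lower, CDH1 at 98, 119, 74 and 85 and LGALS4. LGALS4, an epithelial galectin, was the marker called lower after APC silencing, at 557, 646, 175 and 147 (adjusted p 0.0437 in limma). Over all genes tested, 2.28% were called lower, and 32.3% were higher and 27.1% lower without overlap. All 5 fibroblast and all 3 endothelial markers were listed at 0 in every library. Of 5 blood cell markers, 3 were at 0, CD14 lay between 1 and 4, and LYZ, a lysozyme that epithelial tumour cells can also make, lay between 614 and 906. In bulk RNA, fewer cells of a kind and less RNA per cell cannot be told apart, and p-values over 2 libraries per condition measure only the spread between these libraries.

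At an adjusted p under 0.05 in limma, 2 of the 94 members were higher after APC silencing (SLC25A29 and SLC35E2B) and 2 were lower (SLC7A1 and SLC27A2), which is 2.13% in each direction. Over all 6145 genes tested, 2.59% were higher and 2.28% were lower. The shares of the members lie near those of all genes. SLC25A29 and SLC27A2 are among the 7 members listed through 1 condition, the others being SLC38A5, SLC11A2, SLC35E2, SLC25A15 and SLC30A9. For these genes a difference goes with being listed at all. With at least 10 in every sample the counts were 1 and 1, against 2.97% and 2.86% of the 4682 genes kept. The number of members kept by that filter, fewer than 94, is not given here. At the thresholds used in the study, an adjusted p under 0.01 and a fold change over 4, limma gave 0 members higher and 0 lower, against 0.0% of all genes in both directions. No gene of this fit had an adjusted p below 0.0437, so none could be called at 0.01, and the count says nothing about the members. An unadjusted p under 0.05 in limma was reached by 36 members, 15 higher and 21 lower. Over all 6145 genes tested it was reached by 2130, 1188 higher and 942 lower.

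The 4 calls lie just under the threshold, and they depend on the fit. When the replicate number was added as a block, limma called 0 members in either direction, as it called 0.0% of all genes. The smallest adjusted p then was 0.0531, against 0.0437 without the block. With the block and a correction for GC content together, 15 members (16.0%) were higher and 32 (34%) were lower, against 21.4% and 22.9% of all genes. A pass in this fit was therefore common, and its adjusted p-values are quoted below for only some of the members. GC content correction alone gave 6 higher and 14 lower, against 7.38% and 7.96% of all genes, and robust moderation gave 5 higher and 8 lower, against 6.4% and 5.79%. When any 1 of the 4 libraries was left out, limma called 0 members and 0.0% of all genes, with the lone library of a condition assumed to vary like the others. For a single gene, an exact two-sided permutation test of 2 against 2 libraries cannot give a p under 0.333.

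Sorted by whether the libraries of the conditions overlapped, 20 members (21.3%) had both APC shRNA values above both NonS values, against 32.3% of all genes. Another 33 members (35.1%) had both below, against 27.1% of all genes, and the other 41 overlapped. Within same-numbered libraries, 28 members were higher in APC shRNA in both pairs and 45 were lower in both. The share of all genes for these pairs is not given here. The log2 difference was positive for 33 members and negative for 56. Over all 6145 genes tested it was positive for 3145 and negative for 2880. The median log2 difference of the members was −0.12, against 0.02 over all genes tested, on the scale of log2(value + 1). The differences ran from −1.31 to 1.39, and 48 of the 94 members were within 0.25 of zero in either direction. In total the members made up 0.917% and 0.912% of the summed values of the NonS libraries and 0.869% and 0.886% of those of the APC shRNA libraries.

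**Figure D1:**
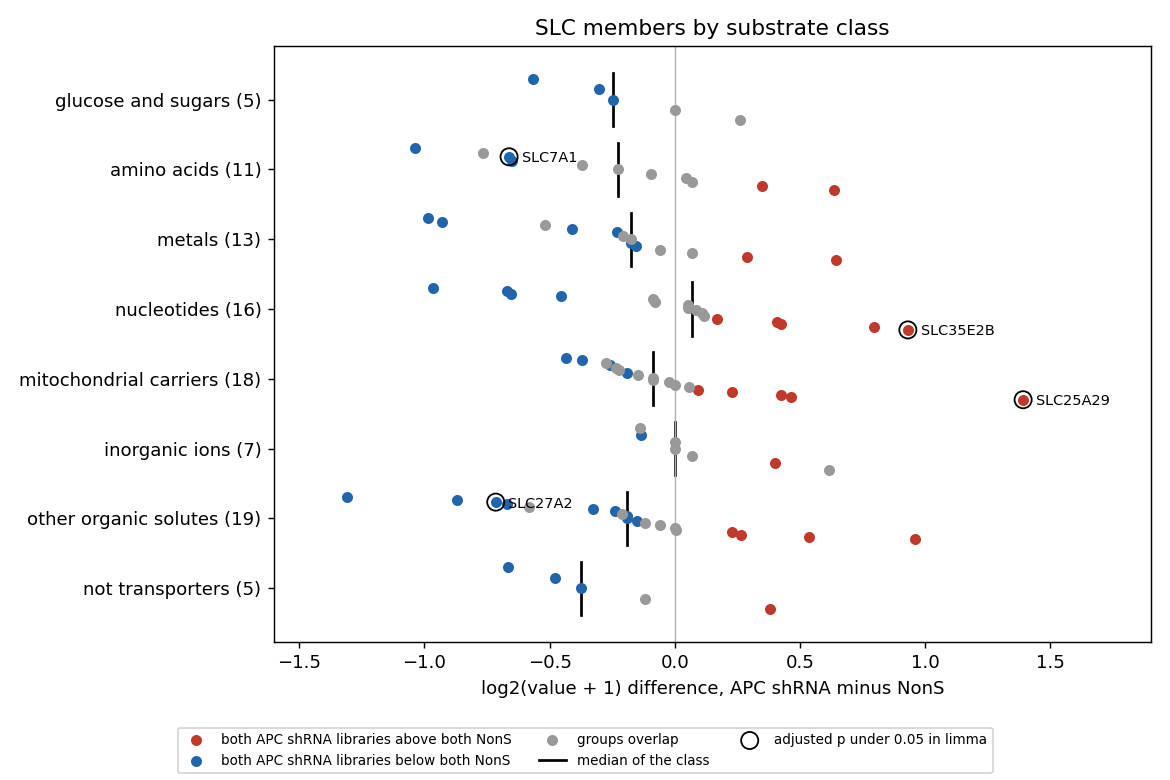
The log2(value + 1) difference between APC shRNA and NonS for each of the 94 SLC members, in rows by substrate class with the number of members, where each point is 1 gene, black bars are class medians and ringed points have an adjusted p under 0.05. The 4 ringed genes are SLC25A29 and SLC35E2B on the right and SLC7A1 and SLC27A2 on the left, and the class medians lie between −0.37 and 0.07.

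The glucose and sugar class had 5 members. None was called, and 3 were lower without overlap, against 27.1% of all genes, with a class median of −0.25. SLC2A1, the facilitative glucose carrier GLUT1, had values of 197, 250, 228 and 311. Replicate II lay above replicate I in both conditions, and the conditions overlapped. The log2 difference was 0.26 ± 0.23 (SE), with an adjusted p of 0.474, or 0.119 with the block and GC content correction. SLC50A1, the human member of the SWEET sugar carriers, had 37 and 41 in NonS and 25 and 27 in APC shRNA. The groups did not overlap, the ratio of means was 0.667 and the adjusted p was 0.0614. SLC37A1, a sugar-phosphate antiporter, had 17, 18, 14 and 14, with an adjusted p of 0.0708. The block and GC content correction together gave adjusted p-values of 0.00644 for SLC50A1 and 0.0177 for SLC37A1.

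Among the 11 amino acid carriers, 1 was called lower, against 2.28% of all genes. The ratios of means ran in both directions. SLC7A1 (ENSG00000139514), the cationic amino acid carrier CAT-1 that takes up arginine and lysine, had 33 in both NonS libraries and 21 and 20 in the APC shRNA libraries. It therefore fell 1.61-fold. The log2 difference was −0.66 ± 0.05 (SE), with 0.0437 as the adjusted p, or 0.0531 with the block. The gene lies on the minus strand at chr13:29509410-29595688 (GRCh38, GENCODE v29) and shares no exonic bases with another gene.

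SLC38A5, a glutamine carrier of system N, had the largest negative difference in the class, with 18 and 15 in NonS and 8 and 7 in APC shRNA. Its log2 difference was −1.04 ± 0.13 (SE) and its adjusted p was 0.052, on the other side of the threshold from SLC7A1. Its APC shRNA mean of 7.5 lies under the table's floor. SLC43A1, the large neutral amino acid carrier LAT3, had 18, 13, 11 and 8, also without overlap, with an adjusted p of 0.185. SLC38A1, a sodium-coupled glutamine carrier, had 28, 16, 18 and 8. Replicate I lay well above replicate II in both conditions, so that the groups overlapped and the adjusted p was 0.378. Within each pair the APC shRNA value was the lower one, and the adjusted p with the block and GC content correction was 0.0318.

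The heavy and light chains of the LAT1 exchanger, through which cells import leucine and other large neutral amino acids, overlapped between conditions. SLC3A2, the heavy chain, had 63, 63, 63 and 67, and the 95% confidence interval of its log2 difference ran from −0.14 to 0.23. SLC7A5, the light chain, had 74, 60, 70 and 70, with an interval from −0.34 to 0.48. SLC38A2, another sodium-coupled glutamine carrier, had 35, 21, 28 and 19. Its groups overlapped, with an adjusted p of 0.68.

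Both APC shRNA values lay above both NonS values in 2 amino acid carriers, against 32.3% of all genes. SLC1A5, the glutamine carrier ASCT2, had 289 and 311 in NonS and 346 and 421 in APC shRNA, a ratio of means of 1.28 with an adjusted p of 0.182. With the block and GC content correction its adjusted p was 0.123. SLC7A6, a light chain that exchanges cationic for neutral amino acids, had 13, 12, 19 and 21. The ratio was 1.6, and the adjusted p of 0.0538 missed the threshold. SLC7A6 shares 4216 exonic bases on the opposite strand with neighbouring genes, among them SLC7A6OS. The strand option of the authors' counting is not given, so whether reads of the partners were kept apart is not known.

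SLC7A1, SLC38A5 and SLC7A5 are shown by the 250 bases upstream of their RefSeq start (GRCh38.p14), as an amino acid carrier that was called lower, one just past the threshold and one whose groups overlapped. They were picked after their values were seen. The windows lie at chr13:29595689-29595938, chrX:48470261-48470510 and chr16:87869508-87869757, all on the minus strand and outside exons annotated in GENCODE v29, and are written 5′ to 3′ along the gene. Capitals mark matches to any of 5 motifs searched on both strands: CTTTGAT and CTTTGTT for TCF/LEF factors, CACGTG for the E-box, TGATGNAA for the amino acid response element and TGCGCNC for the metal response element.
SLC7A1: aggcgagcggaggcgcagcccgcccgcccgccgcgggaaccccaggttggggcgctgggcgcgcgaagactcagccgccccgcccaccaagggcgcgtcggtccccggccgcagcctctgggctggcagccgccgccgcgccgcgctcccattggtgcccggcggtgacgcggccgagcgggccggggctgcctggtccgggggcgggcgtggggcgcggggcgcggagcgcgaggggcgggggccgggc
SLC38A5: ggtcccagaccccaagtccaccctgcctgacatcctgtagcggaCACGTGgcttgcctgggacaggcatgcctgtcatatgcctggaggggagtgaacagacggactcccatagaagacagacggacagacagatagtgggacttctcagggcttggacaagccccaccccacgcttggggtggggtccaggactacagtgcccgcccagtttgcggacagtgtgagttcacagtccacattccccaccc
SLC7A5: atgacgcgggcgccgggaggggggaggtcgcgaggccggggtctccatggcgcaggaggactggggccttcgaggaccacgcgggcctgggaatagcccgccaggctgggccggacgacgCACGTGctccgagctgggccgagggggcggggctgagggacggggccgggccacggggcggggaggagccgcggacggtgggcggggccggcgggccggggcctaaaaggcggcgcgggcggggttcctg
The SLC7A1 window held no match, and those of SLC38A5 and SLC7A5 each held 1 E-box, 206 and 130 bases before the start. SLC38A5, lower without overlap, and SLC7A5, overlapping, thus carry the same letters.

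Upstream windows were found for 77 of the 94 members by symbol. Where a symbol had several starts, the first by chromosome position was taken, which can lie inside the gene, as for SLC41A3. For 64 of the 77, the bases past the start were found in a transcript of the same gene. All promoters, to which they are compared, were not reduced in this way. CTTTGAT was present in 2 of them (2.60%), against 2.26% of all 35116 promoters of that length, and CTTTGTT in 1 (1.30%), against 4.50%. The E-box was present in 9 members (11.7%), against 6.34%, and these comprised 2 of 15 members higher without overlap, 2 of 28 lower without overlap and 5 of 34 overlapping. TGATGNAA occurred in 2 members (2.60%), against 3.14%, and TGCGCNC in 23 (29.9%), against 16.8%. A match is one of letters only. The median GC content of the members' transcripts, which are not these windows, was 54.9%, against 51.4% over all genes tested. The GC content of all promoters is not given here.

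Carriers that are known targets of ATF4, the transcription factor of the amino acid starvation response, were taken as a list of 10. Of these, 6 were in the table, with 0 called higher and 1 called lower (SLC7A1) and a median log2 difference of −0.09. Over all genes tested, 2.59% were called higher and 2.28% lower. Without overlap 1 of the list was higher and 2 were lower, against 32.3% and 27.1% of all genes. The other 4 had low values throughout. SLC7A11, the cystine carrier, was listed at 7, 2, 2 and 1, SLC1A4 at 3, 2, 3 and 2, SLC6A9 at 1, 0, 1 and 1, and SLC7A3 at 0 in every library.

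The metal carriers numbered 13. None was called. Without overlap 2 were higher and 6 were lower, against 32.3% and 27.1% of all genes, and the class median was −0.17. The lowest differences belonged to the carriers through which iron enters and leaves enterocytes. SLC40A1, the iron exporter ferroportin, had 25 and 28 in NonS and 15 and 12 in APC shRNA, a ratio of 0.509 with an adjusted p of 0.0636. SLC11A2, the importer DMT1, had 10 and 14 in NonS and 5 and 6 in APC shRNA, a ratio of 0.458 with an adjusted p of 0.086. Its APC shRNA mean of 5.5 lies under the table's floor. The block and GC content correction together gave adjusted p-values of 0.0243 for SLC40A1 and 0.0105 for SLC11A2. TFRC, the transferrin receptor and no SLC gene, had 97, 89, 46 and 26, with an adjusted p of 0.0974.

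Zinc carriers of the SLC39 family lay on both sides of zero, 2 with positive and 5 with negative differences. Over all 6145 genes tested, 3145 differences were positive and 2880 were negative. SLC39A7, which releases zinc from the endoplasmic reticulum, had 84, 90, 78 and 76, a separation of 1.13-fold with an adjusted p of 0.173. SLC39A1, a zinc importer, had 57, 64, 60 and 67, and its groups overlapped. SLC39A13 had 7, 9, 12 and 14, a ratio of 1.62 with an adjusted p of 0.106. SLC41A3, of a magnesium carrier family, had 23, 25, 29 and 30, a ratio of 1.23 with an adjusted p of 0.0942. Copper uptake is carried out by SLC31A1, with 13, 12, 10 and 11.

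The class of nucleosides, nucleotides and nucleotide sugars held 16 members, of which 13 belong to SLC35. The only call was SLC35E2B, higher, against 2.59% of all genes. Without overlap 5 were higher and 4 were lower, against 32.3% and 27.1% of all genes, and the class median was 0.07. In the SLC35 family 10 differences were positive and 3 were negative, against 3145 and 2880 of the 6145 genes tested. SLC35E2B (ENSG00000189339), a family member whose substrate is not established, had 27 in both NonS libraries and 49 and 56 in the APC shRNA libraries. It rose 1.94-fold. The log2 difference was 0.93 ± 0.09 (SE), with 0.0489 as the adjusted p, or 0.0531 with the block. The gene lies on the minus strand at chr1:1659529-1692728 (GRCh38, GENCODE v29).

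SLC35E2B has a neighbour with which it shares sequence, SLC35E2 (SLC35E2A in GENCODE v29), at chr1:1724838-1745999 on the same strand. SLC35E2 had 6, 7, 12 and 12, a ratio of 1.85 with an adjusted p of 0.0513, and its NonS mean of 6.5 lies under the table's floor. The ratio of the SLC35E2B to the SLC35E2 value was 4.50, 3.86, 4.08 and 4.67, with no order between conditions. Of the 50-base words in the longest SLC35E2B transcript, 53.0% also occur in transcripts of another gene. Reads of 50 bases from such stretches cannot be assigned to 1 gene by their sequence, so the values of both genes are uncertain.

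SLC35A1, which brings CMP-sialic acid into the Golgi for sialylation, was on the other side. It had 27 and 20 in NonS and 13 and 10 in APC shRNA, a ratio of 0.489 with an adjusted p of 0.0947, and 0.00748 with the block and GC content correction. It shares 1106 exonic bases on the same strand with another annotated gene. Of the 50-base words in its longest transcript, 56.1% occur elsewhere. SLC29A2, the nucleoside carrier ENT2, had 27, 22, 16 and 14, with an adjusted p of 0.0862. SLC35B2, the Golgi carrier of the sulfate donor PAPS, had 62, 69, 68 and 71, and its groups overlapped. SLC35B1, an ATP carrier of the endoplasmic reticulum, had 20, 19, 26 and 27, a ratio of 1.36 with an adjusted p of 0.0543.

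The 18 mitochondrial carriers had 1 call, higher, against 2.59% of all genes, and a class median of −0.09. Without overlap 5 were higher and 4 were lower, against 32.3% and 27.1% of all genes. SLC25A29 (ENSG00000197119), a carrier of basic amino acids into the matrix, had 5 and 6 in NonS and 16 in both APC shRNA libraries. It rose 2.91-fold, the largest difference of any member, with a log2 difference of 1.39 ± 0.10 (SE). The adjusted p was 0.0437, or 0.0531 with the block. The gene lies on the minus strand at chr14:100291111-100306547 (GRCh38, GENCODE v29). It shares 99 exonic bases on the same and 693 on the opposite strand with other annotated genes. Its NonS mean lies under the table's floor of 8, so it entered the table through its APC shRNA values, as a gene at this level had to differ to be listed.

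The adenine nucleotide translocators, which exchange ADP for ATP across the inner membrane, stood apart in opposite directions. SLC25A5 had 511 and 474 in NonS and 434 and 389 in APC shRNA, a ratio of 0.836 with an adjusted p of 0.166. SLC25A6 had 205 in both NonS libraries and 313 and 256 in APC shRNA, a ratio of 1.39 with an adjusted p of 0.117. The adjusted p passed the threshold for neither, and the conditions overlapped for neither. With the block and GC content correction both passed, at 0.0303 for SLC25A5 and 0.031 for SLC25A6. That fit called 21.4% of all genes higher and 22.9% lower. The ratio of the SLC25A5 to the SLC25A6 value was 2.49 and 2.31 in NonS and 1.39 and 1.52 in APC shRNA. The muscle and heart form SLC25A4, outside the table, was listed at 4, 4, 3 and 3.

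SLC25A1, the citrate carrier that supplies cytosolic acetyl-CoA for lipid synthesis, had 107 and 127 in NonS and 85 and 87 in APC shRNA. The ratio was 0.735 and the adjusted p 0.106, and 0.00665 with the block and GC content correction. SLC25A15, the ornithine carrier of the urea cycle, had 11, 9, 7 and 8, with an adjusted p of 0.179 and an APC shRNA mean under the floor. SLC25A38, a glycine carrier needed for heme synthesis, had 13, 14, 17 and 20, with an adjusted p of 0.106. The phosphate carrier SLC25A3 had 59, 58, 64 and 61, a ratio of 1.07 without overlap and with an adjusted p of 0.318. The mitoferrins, which carry iron into mitochondria, overlapped, with 10, 9, 8 and 9 for SLC25A37 and 16, 21, 14 and 17 for SLC25A28.

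Of the 7 carriers of inorganic ions none was called, and the class median was 0. SLC12A2, the sodium-potassium-chloride cotransporter NKCC1, had 65, 40, 105 and 59. Its replicates differed so far that the groups overlapped, and its log2 difference was 0.62 ± 0.44 (SE) with an adjusted p of 0.379. Within each pair the APC shRNA value was the higher one, and the adjusted p was 0.0536 with the block and 0.00646 with the block and GC content correction. SLC12A7, the potassium-chloride cotransporter KCC4, had 32, 35, 45 and 44, a ratio of 1.33 with an adjusted p of 0.0695. SLC4A2, an anion exchanger, had 77, 79, 70 and 72, with an adjusted p of 0.183. The phosphate carrier SLC20A1 had 14, 16, 13 and 14, and SLC26A6, another anion exchanger, had 8, 9, 8 and 9.

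**Figure D2:**
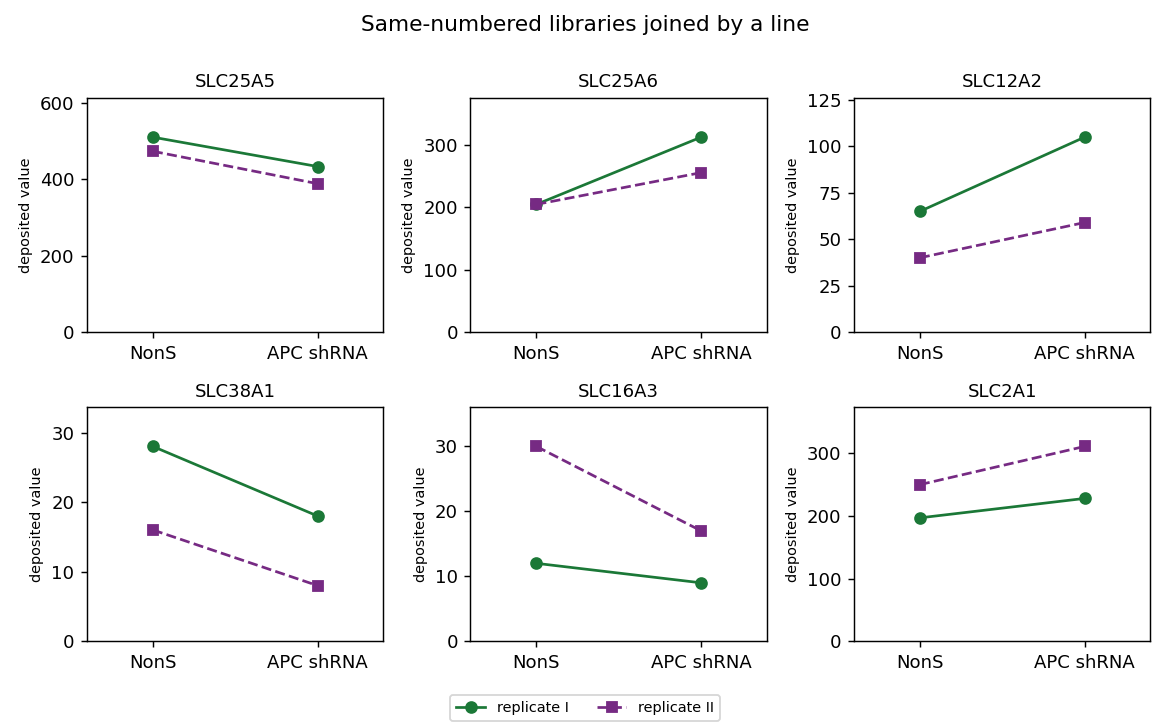
Deposited values of 6 SLC members, chosen after their values were seen, with same-numbered libraries joined by a line (green circles, replicate I; purple squares, replicate II) and a linear axis from 0. SLC12A2, SLC38A1, SLC16A3 and SLC2A1 overlap between conditions and have replicates that lie apart, and both lines run the same way in every panel.

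Replicate numbers went with the values across the set. In 38 members replicate II lay above replicate I in both conditions, in 19 it lay below in both, and in 37 the order differed or was tied. The difference between replicates II and I in NonS went with GC content across the members (Spearman correlation 0.36 over 94 genes, which share the same libraries) and over all genes tested (0.51). The difference between conditions had a correlation of 0.00 with GC content across the members and 0.26 over all genes. Its part in the results was not tested beyond the corrected fits given here.

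The 19 carriers of other organic solutes included 1 call, lower, against 2.28% of all genes, and had a class median of −0.19. Without overlap 4 were higher and 9 were lower, against 32.3% and 27.1% of all genes. SLC27A2 (ENSG00000140284), an acyl-CoA synthetase and fatty acid carrier, had 11 and 10 in NonS and 6 in both APC shRNA libraries. It fell 1.75-fold. The log2 difference was −0.71 ± 0.07 (SE), with 0.0493 as the adjusted p, or 0.0531 with the block and 0.0521 with robust moderation. It lies on the plus strand at chr15:50182196-50236395 (GRCh38, GENCODE v29), shares 557 exonic bases on the opposite strand with ATP8B4 and has an APC shRNA mean under the table's floor.

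The most negative difference of any member was that of SLC16A5, the monocarboxylate carrier family member MCT6. It had 29 and 39 in NonS and 12 and 14 in APC shRNA, 2.62-fold lower, with a log2 difference of −1.31 ± 0.19 (SE). The adjusted p was 0.0606, beside a difference of 10 between the NonS libraries, and it was 0.00437 with the block and GC content correction. The conditions overlapped in the lactate carriers of the family. SLC16A1 (MCT1) had 35, 27, 29 and 30, and SLC16A3 (MCT4) had 12, 30, 9 and 17, with adjusted p-values of 0.805 and 0.539. SLC16A3 was lower in APC shRNA in both pairs, and with the block and GC content correction its log2 difference was −0.71 and its adjusted p 0.0126.

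SLC6A6, the taurine carrier, had 18 and 21 in NonS and 35 and 43 in APC shRNA. Its ratio of means was 2.0, its log2 difference 0.96 ± 0.15 (SE) and its adjusted p 0.065, or 0.00485 with the block and GC content correction. SLC52A3, a riboflavin carrier, had 8, 10, 12 and 15, with an adjusted p of 0.152. On the lower side, SLC45A3 had 14, 17, 8 and 8, a ratio of 0.516 with an adjusted p of 0.0561. The creatine carrier SLC6A8 had 50, 52, 44 and 45, and SLC44A4, of the choline carrier-like family, had 59, 72, 58 and 56, with adjusted p-values of 0.115 and 0.359. Both separated without overlap, with means 1.15-fold lower in APC shRNA.

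Among the 5 members that are not carriers, none was called. Without overlap 1 was higher and 3 were lower, against 32.3% and 27.1% of all genes. SLC9A3R1, the scaffold NHERF1 that anchors transporters to ezrin under the apical membrane, had 109 and 133 in NonS and 75 and 76 in APC shRNA. The ratio was 0.624 and the adjusted p 0.0747, and 0.0058 with the block and GC content correction. Its relative SLC9A3R2 had 34, 38, 27 and 28, with an adjusted p of 0.0859. SLC2A4RG, a zinc finger protein, had 45, 55, 34 and 37, with an adjusted p of 0.12. SLC7A6OS, which overlaps SLC7A6, had 11, 10, 13 and 15. The conditions overlapped in SLC4A1AP, the remaining member of this class.

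**Figure D3:**
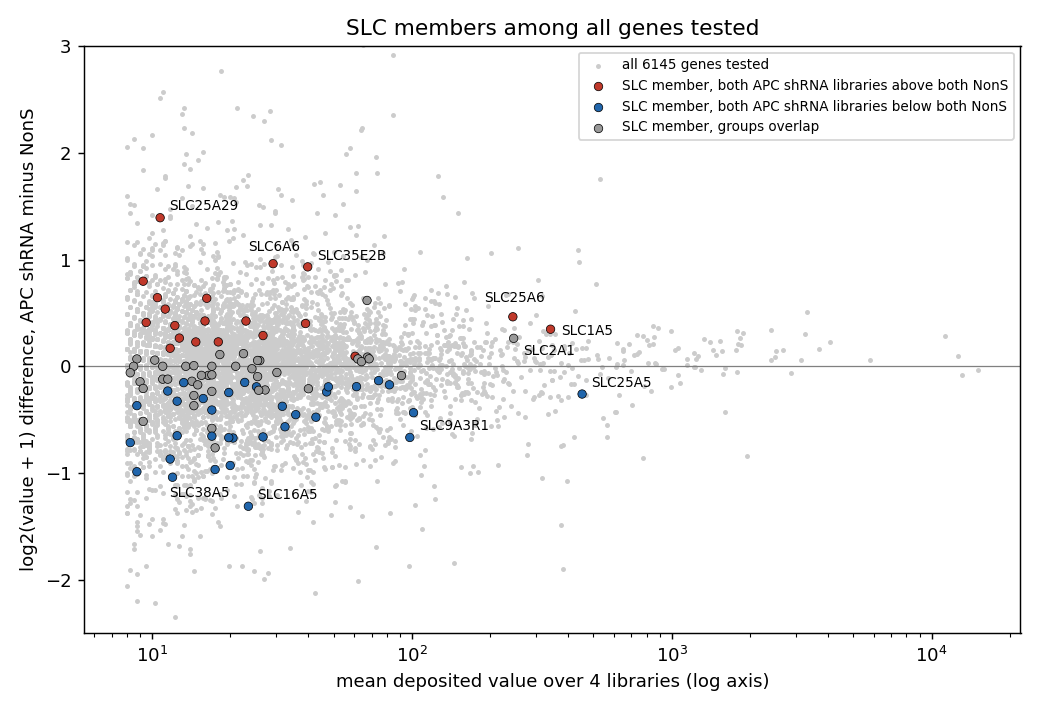
Mean deposited value over 4 libraries (log axis) against the log2(value + 1) difference between APC shRNA and NonS for all 6145 genes tested (grey) and the 94 SLC members (coloured by overlap of the conditions), where 15 genes lie outside the vertical axis from −2.5 to 3. The SLC members span the same levels as the bulk of genes, with their extremes at SLC25A29 (1.39) and SLC16A5 (−1.31).

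Genes that work with SLC carriers under another symbol were taken as a list of 26, of which 16 were in the table. Of these, 2 were called higher and 0 lower in limma, while 3 were higher and 10 were lower without overlap. Over all genes tested, 2.59% and 2.28% were called and 32.3% and 27.1% did not overlap. UCP2, an inner membrane carrier of the SLC25 family that is outside the set by its symbol, had 48, 52, 111 and 100. It rose with a log2 difference of 1.06 (adjusted p 0.0475). PDZK1, a scaffold of apical carriers, had 6, 6, 10 and 11, with a difference of 0.71 and an adjusted p of 0.0493. Its NonS values lie under the table's floor, so it was tested through its APC shRNA values. MPC2, a subunit of the mitochondrial pyruvate carrier, had 24, 20, 12 and 12, with an adjusted p of 0.0566. EZR, encoding ezrin, had 157, 190, 107 and 115, with an adjusted p of 0.0811. BSG, the chaperone of SLC16A1 and SLC16A3, had 156, 165, 181 and 176.

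Carriers of the absorptive intestinal surface were taken as a list of 16, and 1 of them, SLC16A1, was in the table. Another 9 were listed at 0 in every library, among them the chloride-bicarbonate exchanger SLC26A3 and the short-chain fatty acid carrier SLC5A8. The sulfate carrier SLC26A2 was at 2, 1, 1 and 1, the sodium-proton exchanger SLC9A3 at 1, 1, 2 and 2, and the carnitine carrier SLC22A5 at 3, 3, 3 and 4. These values are too near 0 for a comparison.

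The 280 SLC genes outside the table held 148 that were listed at 0 in every library and 132 with a value above 0 in at least 1. Among 107 of them with a mean of at least 1, 23 were higher and 19 were lower without overlap. Over the genes of the table, whose means are higher, the shares were 32.3% and 27.1%. At such low whole numbers a step of 1 can decide whether groups overlap, as for SLC9A3 at 1, 1, 2 and 2. The SLC genes outside the table were not tested in the comparison reported first, and no share over other low genes is given. At the table's edge, SLC26A6, SLC27A2 and SLC30A5 (10, 7, 8 and 8) had the lowest means inside. Just outside lay SLC48A1 at 8, 8, 7 and 8, SLC29A3 at 5, 8, 9 and 9, and SLC15A4 at 7, 8, 6 and 9. A floor on the mean of both conditions keeps some genes through 1 condition only, and 7 members had a mean under 8 in one condition.

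In 49 of the 94 members an exon shares bases with another annotated gene, 17 of them on the same strand. The longest transcripts of 57 members share no 50-base word with another gene, and those of 9 share more than 10% of their words. Shorter transcripts were not searched. SLC37A1, without a shared word, still shares 322 exonic bases on the same strand with another gene. The members separated higher had a median transcript GC content of 52.6% and those separated lower one of 56.7%, while over all genes tested the order was the reverse, with 54.4% and 49.5%.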

How the data were processed

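RNA-Seq of 4 libraries of HT-29 cells with APC shRNA or NonS shRNA was analysed, grouped by the sample labels. The authors mapped filtered reads with TopHat2 to GRCh38, assigned them to GENCODE v29 genes with htseq-count and compared conditions with DESeq2 1.4.1. The submitters' processing notes list hg19 instead, and coordinates here are those of GENCODE v29. The library kit marks strand, and the strand option of the counting is not given in the sources used here.

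For each gene, the authors deposited a whole number per library, used here as a score whose scale is not stated, since the values do not behave as counts of reads. Replicates of low genes varied by 0.484 (NonS) and 0.363 (APC shRNA) times the Poisson variance. The sum of value times kb of the longest transcript was between 980841 and 984873 in all libraries. Depth in reads is therefore unknown, no counting interval can be given, and rounding limits the precision of low values. The deposited table also holds log2 fold changes, fold changes and adjusted p-values of the authors' comparison, which were not used. Its genes are the 6145 with a mean of at least 8, although the methods describe a minimum of 10.

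Conditions were compared on log2(value + 1) across all 6145 genes, using lmFit and then eBayes with the trend option (limma 3.58.1, R 4.3.3), with Benjamini-Hochberg adjustment and a threshold of 0.05, two-sided. The prior degrees of freedom were 1.04, and the test was tried on simulated data. Alternatives covered scaling, pseudocount, filters, the replicate number as a block, loess corrections for GC content and length (span 0.5), moderation and each library left out. This scale understates changes of genes with low values. Ratios of means have no pseudocount.

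The comparison reported first has no block, and a fit with the replicate number as a block is given beside it. The numbers were held to pair libraries, since the series design describes a repeat of the experiment and libraries of the same number shifted alike. Differences between replicates II and I correlated at 0.728 between conditions over the genes tested, 0.731 after GC content correction and 0.760 over the SLC members. Neither source states that a number marks a shared day.

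The members, substrate classes and gene lists were chosen with earlier results of these data known. Members were named where they were called with a difference over 1 on the log2 scale, had the 2 largest positive or negative differences or the 2 highest means in their class, belonged to a list, or lay next to the table's floor. Names beyond that rule were chosen after their values were seen. SLC7A6OS was added to the members that are not carriers after the members were listed. Upstream sequences come from RefSeq (GRCh38.p14).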

Additional observations from a re-analysis of the deposited data

How the results depend on the processing

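The counts of members called at an adjusted p under 0.05, 2 higher and 2 lower, moved under most alternatives. They were 5 and 7 with median-of-ratios size factors (4.93% and 4.7% of all genes), 5 and 10 with upper-quartile scaling (5.86% and 5.76%), 5 and 10 scaled to equal totals (6.04% and 6.12%), 6 and 14 with GC content correction (7.38% and 7.96%), 5 and 9 with gene length correction (6.28% and 5.58%), and 5 and 8 with robust moderation (6.4% and 5.79%). Genes with at least 10 in every sample gave 1 and 1 (2.97% and 2.86%), with not all members tested. Testing all genes whose total was at least 1 gave 4 higher. That fit called 7.44% of all genes higher and 4.02% lower, and its number of members lower is not given here. The thresholds of an adjusted p under 0.01 and a 4-fold change gave 0 and 0, which no gene could pass. The replicate block gave 0 and 0, and 15 and 32 together with GC content correction (21.4% and 22.9%). Leaving out each library in turn gave between 0 and 0 members in either direction, and 0.0% of all genes. The counts were 2 and 2 with pseudocounts of 0.1 (2.49% and 2.0% of all genes) and 5 (2.67% and 2.33%). They were also 2 and 2 without a mean-variance trend (2.57% and 2.1%) and with a mean of at least 10 (4.33% and 3.7%). Not all members were tested in the last of these. SLC27A2, at a mean of 8.25, was left out there, so the 2 lower members are not the same 2.

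The median difference of the members, −0.12, was negative under every setting run, at −0.15 with upper-quartile scaling, −0.15 scaled to equal totals, −0.0903 with a pseudocount of 5, and between −0.105 and −0.0826 with 1 library left out. Among 45 named members, 7 changed sign under some setting. With GC content correction, with or without the replicate block, the values were 0.0832 for SLC16A1, 0.20 for SLC30A5, −0.0182 for SLC35B2, 0.0730 for SLC38A2, −0.0353 for SLC39A1, −0.0599 for SLC3A2 and −0.0484 for SLC7A5. With 1 library left out they ran from −0.24 to 0.12 for SLC16A1, −0.29 to 0.17 for SLC30A5, −0.58 to 0.13 for SLC38A2, −0.0133 to 0.15 for SLC39A1 and −0.0791 to 0.22 for SLC7A5. The cause was not tested. The depth in reads is unknown, and 2 libraries per condition limit the precision. Without the members that are not transporters, an alternative added after seeing the data, the median was −0.0963. None of them was called, so the counts could not move.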
